A study of Mus musculus with 2 samples.

Results

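The 10 genes described here are the metallothioneins Mt1, Mt2, Mt3 and Mt4 and the heat shock genes Hspa1a, Hspa1b, Hspb1, Hspa8, Dnajb1 and Hsph1, taken by symbol from the 32285 genes of the count tables. They were followed through the cell classes and epithelial layers of mouse palatal gingiva in 2 scRNA-seq libraries. The tissue came from female C57BL/6J mice of 8 to 12 weeks, on which 3 µl of a bacterial ligand at 1 µg/ml had been placed and kept covered for 1 h, and it was taken at day 4. CpG ODN, a synthetic DNA ligand of TLR9, was given to the mice of the first library and LPS of P. gingivalis, a ligand of TLR2/4, to those of the second. Each library held equal numbers of cells pooled from 4 mice, so no test between the ligands can be made, and every interval given (95%) covers counting error only and not the spread between mice. All mice of these groups received a ligand, and untreated gingiva was not analysed here. The cells had been released at 37 °C by collagenase for 20 min and trypsin for 30 min.

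Metallothioneins are small cysteine-rich proteins that bind zinc and copper. Mt1 and Mt2 are expressed in most tissues and are induced by metals through the factor MTF1, which binds metal response elements (MREs), and also by glucocorticoids. Mt3 is best known from the nervous system, and Mt4 from the differentiating cells of stratified squamous epithelia such as skin, tongue and palate. Heat shock proteins are chaperones that hold or refold other proteins, and many of their genes are induced by the factor HSF1, which binds heat shock elements (HSEs). Hspa1a and Hspa1b are the strongly inducible copies of the Hsp70 family and Hspa8 is its constitutive member. Dnajb1 is a J-domain cochaperone that delivers substrates to Hsp70, Hsph1 exchanges its nucleotide, and Hspb1 is a small heat shock protein that binds intermediate filaments and unfolded proteins.

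The 4 metallothionein genes lie in a row on the forward strand of chromosome 8 (GRCm38, GENCODE M21), Mt4 at 94137197-94139031, Mt3 at 94152607-94154146, Mt2 at 94172664-94173568 and Mt1 at 94179082-94180327, within 43131 bases. Hspa1b at 34956436-34959238 and Hspa1a at 34969190-34972156 are single-exon genes on the reverse strand of chromosome 17, 9951 bases apart. Their transcripts have 2803 and 2967 bases and were identical at 86.6% of the positions of an alignment. Over the last 400 bases, from which a 3′ library is read, identity was 51.4% and no stretch of 60 bases was shared, against 56.3% of the 60-base stretches of the whole Hspa1a transcript. Reads from the shared part cannot be assigned to a copy, so the split between Hspa1a and Hspa1b is uncertain, and their sum is given as well. Hspb1 lies at 135887919-135889563 on chromosome 5, Hsph1 at 149614287-149636376 on the same chromosome, Dnajb1 at 83608193-83612653 on chromosome 8 and Hspa8 at 40800984-40810087 on chromosome 9.

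The 250 bases before the RefSeq start (GRCm38.p6) were read for 9 of the 10 genes. They are printed for 6 of them, in pairs or sets whose levels parted or moved together across the epithelium, 5′ to 3′ on the strand of the gene. Capitals mark matches on either strand to the MRE core (TGCACNC or TGCGCNC), to a pair of HSE units (GAANNTTC or TTCNNGAA, the inner part of the longer GAANNTTCNNGAA and TTCNNGAANNTTC, which matched none of these windows) or to TATAAA. The windows are chr8:94178839-94179088 (Mt1), chr8:94172368-94172617 (Mt2) and chr8:94136954-94137203 (Mt4) on the forward strand, chr17:34972157-34972406 (Hspa1a) and chr17:34959239-34959488 (Hspa1b) on the reverse strand, and chr5:135887669-135887918 (Hspb1) on the forward strand.
Mt1: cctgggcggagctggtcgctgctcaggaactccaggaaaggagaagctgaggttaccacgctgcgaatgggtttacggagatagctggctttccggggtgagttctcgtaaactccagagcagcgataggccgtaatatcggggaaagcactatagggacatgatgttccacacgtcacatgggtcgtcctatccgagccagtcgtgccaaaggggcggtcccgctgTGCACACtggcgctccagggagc
Mt2: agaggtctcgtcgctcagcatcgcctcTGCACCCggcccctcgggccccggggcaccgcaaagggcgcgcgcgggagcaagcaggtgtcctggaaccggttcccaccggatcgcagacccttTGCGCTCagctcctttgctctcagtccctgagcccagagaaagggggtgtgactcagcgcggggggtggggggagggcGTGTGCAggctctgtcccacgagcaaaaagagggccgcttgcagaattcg
Mt4: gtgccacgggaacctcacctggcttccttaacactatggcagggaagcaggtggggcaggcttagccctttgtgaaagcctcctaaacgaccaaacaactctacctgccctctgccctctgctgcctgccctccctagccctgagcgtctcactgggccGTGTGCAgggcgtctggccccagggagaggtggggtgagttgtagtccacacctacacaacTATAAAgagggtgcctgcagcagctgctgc
Hspa1a: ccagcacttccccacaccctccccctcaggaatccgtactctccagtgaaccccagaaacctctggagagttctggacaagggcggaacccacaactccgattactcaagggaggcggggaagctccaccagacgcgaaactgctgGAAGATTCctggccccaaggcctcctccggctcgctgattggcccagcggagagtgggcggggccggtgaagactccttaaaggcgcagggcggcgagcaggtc
Hspa1b: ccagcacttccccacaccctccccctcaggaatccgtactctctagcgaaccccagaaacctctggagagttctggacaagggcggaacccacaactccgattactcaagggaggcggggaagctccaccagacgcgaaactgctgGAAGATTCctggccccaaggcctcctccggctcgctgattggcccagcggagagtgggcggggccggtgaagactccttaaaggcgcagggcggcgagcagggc
Hspb1: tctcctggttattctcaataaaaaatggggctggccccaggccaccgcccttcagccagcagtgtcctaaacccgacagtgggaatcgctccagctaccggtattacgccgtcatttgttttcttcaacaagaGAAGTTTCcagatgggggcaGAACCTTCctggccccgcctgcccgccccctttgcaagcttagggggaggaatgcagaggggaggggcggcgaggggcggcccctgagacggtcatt
The MRE core was found 3 times before Mt2 and 1 time each before Mt1 and Mt4. Of 32851 mouse promoter windows of this length, 21.4% hold it at least 1 time and 1.26% hold it 3 or more times. TATAAA was found before Mt4, 30 bases from its start, and is in 12.4% of the windows. The start annotated for the 3-exon Mt1 transcript lies 7 bases before the RefSeq start, and other Mt1 transcripts start 122 and 152 bases after it. Those of Mt2 start 46 and 242 bases after the RefSeq start of Mt2, so the bases just before these later starts are not shown. The Hspa1a and Hspa1b windows were identical at 98.8% of positions and differed by C44T, T47C and T249G, from Hspa1a to Hspa1b and counted from 1 at the 5′ end. Both held the 2-unit HSE at the same place, 104 bases before the start, Hspb1 held it 2 times, and 12.8% of all windows hold it. It was also found before Hsph1, which was not higher in the outer layers, and not before Dnajb1, which was. The pair of HSE units was added after the longer motif had given no match, and a match is a description of the letters only.

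After barcodes with fewer than 800 detected genes were left out, the median cell held 11078 UMIs among 4888 cells treated with CpG ODN and 22680 UMIs among 1277 cells treated with LPS. A UMI is the tag of a single captured RNA molecule, and levels are given as UMIs of a gene per 1000000 UMIs of the same cells (CPM). The LPS library was read more deeply per cell, so shares of cells with a UMI are not compared between libraries without thinning. The cells were divided into 27 clusters without use of the 10 genes, and named from marker genes, among them 3762 and 987 epithelial-like cells (CpG ODN and LPS). Of these, 1220 and 347 were basal-like, 309 and 73 dividing-like, 547 and 164 spinous-like and 296 and 93 upper-like. The others were not placed in a layer. Neither Krt76 nor Krt10 was limited to a single layer. Over both libraries, Krt76 stood at 21346 and 34214 CPM in the spinous-like clusters and 39335 and 28036 in the upper-like ones. Krt10 stood at 1933 and 5131 CPM and at 9883 and 8820 CPM in the same clusters. The 10 genes held 1.61% and 1.52% of all UMIs of the kept cells, and 1 barcode among the kept cells was shared by the libraries.

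Between the ligands, no gene of the 10 differed by 2-fold or more over the epithelial-like cells. Mt1 stood at 2191 CPM (2180-2203) in the CpG ODN library and 1732 (1718-1746) in the LPS library, a CpG ODN/LPS ratio of 1.27 (1.25-1.28). Mt2 stood at 1180 and 1158 CPM and Mt4 at 9170 and 8921 CPM, ratios of 1.02 (1.01-1.03) and 1.03 (1.02-1.03). Of these 3 genes Mt1 thus differed most, and each level rests on at least 39544 UMIs. Mt3 was sparse, at 46.1 and 63.2 CPM, a ratio of 0.729 (0.690-0.771). Of all genes with at least 100 UMIs in these cells, 0.317% were 2-fold or more higher and 1.71% were 2-fold or more lower in the CpG ODN library, and 0 of the 10 genes passed either limit.

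Among the heat shock genes, the inducible Hsp70 copies were lower and Hsph1 was higher in the epithelial-like cells of the CpG ODN library. Hspa1a stood at 97.7 CPM with CpG ODN and 145 with LPS, a ratio of 0.674 (0.649-0.699), and Hspa1b at 203.6 and 238.2 CPM, a ratio of 0.855 (0.831-0.879). Their sum, which does not depend on the split of reads between them, gave a ratio of 0.786 (0.769-0.804). The sum was lower in the CpG ODN library in each of the 4 layers, with ratios between 0.791 and 0.933. It was not lower in the spinous-like cluster led by Krt76 and Cryba2, at 279.2 and 274.0 CPM. Over the epithelial-like cells Hsph1 stood at 43.5 and 32.1 CPM, a ratio of 1.36 (1.26-1.46). Hspa8 stood at 1298 and 1115 CPM, a ratio of 1.16 (1.15-1.18). Hspb1 differed less, at 2606 and 2383 CPM with a ratio of 1.09 (1.09-1.10), and the interval of the Dnajb1 ratio, 0.987 (0.966-1.01), held 1. Other classes did not share the direction of the Hsp70 copies. In gland-like cells the ratios of Hspa1a and Hspa1b were 1.41 (1.09-1.84) and 1.64 (1.33-2.02). In mural-like cells the Hspa1a ratio was 2.01 (1.08-4.03), from 51 and 13 UMIs. The fibroblast-like ratios, 1.06 and 0.954, had intervals that held 1. Whether these differences come from the ligand, the mice or the libraries cannot be told apart.

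**Figure D1:**
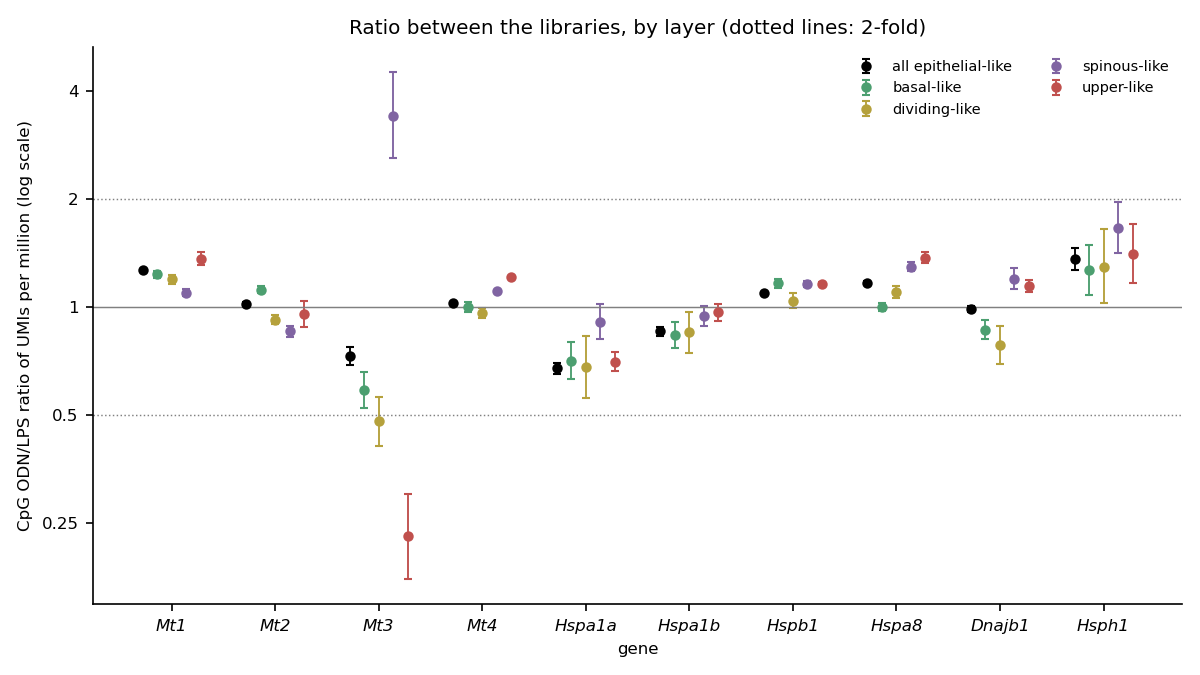
The CpG ODN/LPS ratio of CPM (log axis) for each gene, in all epithelial-like cells and in each layer, with exact 95% intervals from counting, 1 library per ligand. In all epithelial-like cells the 10 ratios lie between 0.674 (Hspa1a) and 1.36 (Hsph1), and only Mt3 goes past the dotted 2-fold lines, upward in spinous-like and downward in dividing-like and upper-like cells.

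Mt1, Mt2 and Mt4 differed more across the layers of the epithelium than between the ligands, and Mt4 went the opposite way from the other two. Mt4 rose from 833.8 CPM in basal-like cells to 2149 in dividing-like, 14180 in spinous-like and 12572 in upper-like cells of the CpG ODN library. In the LPS library it stood at 833.6, 2235, 12821 and 10383 CPM in the same order. Upper-like over basal-like cells, Mt4 was 15.1-fold higher (14.8-15.4) with CpG ODN and 12.5-fold higher (12.1-12.8) with LPS. Among the cells placed in a layer, the step lay between dividing-like and spinous-like cells. Beyond it Mt4 no longer rose, at 0.887 and 0.810 of the spinous-like level in upper-like cells. Cells not placed in a layer filled part of this gap. The unplaced cluster led by Krt15 and Lgi2, of 657 and 108 cells, held 8418 and 7818 CPM of Mt4. In single cells the median went from 157.6 to 13299 CPM between basal-like and spinous-like cells of the CpG ODN library and from 127.5 to 12243 CPM in the LPS library. After thinning to 1500 UMIs, 73.0% and 70.5% of the epithelial-like cells still had an Mt4 UMI.

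Mt1 and Mt2, the widely expressed metallothioneins, were highest in dividing-like cells and lowest in upper-like cells. Mt1 stood at 2438, 3866, 1639 and 744 CPM in basal-like, dividing-like, spinous-like and upper-like cells with CpG ODN, and at 1979, 3238, 1497 and 545.8 with LPS. Mt2 fell more steeply, from 1658 and 1485 CPM in basal-like cells to 136.7 and 143.1 in upper-like cells, and stood at 2803 and 3042 in dividing-like cells. The upper-like/basal-like ratio of Mt1 was 0.305 (0.298-0.313) and 0.276 (0.266-0.286), and that of Mt2 0.0825 (0.0781-0.0870) and 0.0964 (0.0900-0.103). Both libraries thus gave the same order of the layers for Mt1 and for Mt2. The size of the fall was not stable. When the limit was set at 1200 detected genes and the remaining cells were clustered again, the Mt1 ratio was 0.608 and 0.536 and the Mt2 ratio 0.244 and 0.271. Of the 2 upper-like clusters, the lower levels lay in that led by Lor, a protein of the cornified envelope, with 254.8 and 113.8 CPM of Mt1 and 44.0 and 20.0 of Mt2, while Mt4 stayed at 7692 and 6859 CPM there. In the other upper-like cluster, led by Krt10, Mt1 stood at 972.3 and 883.5 CPM and Mt4 at 14850 and 13138.

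**Figure D2:**
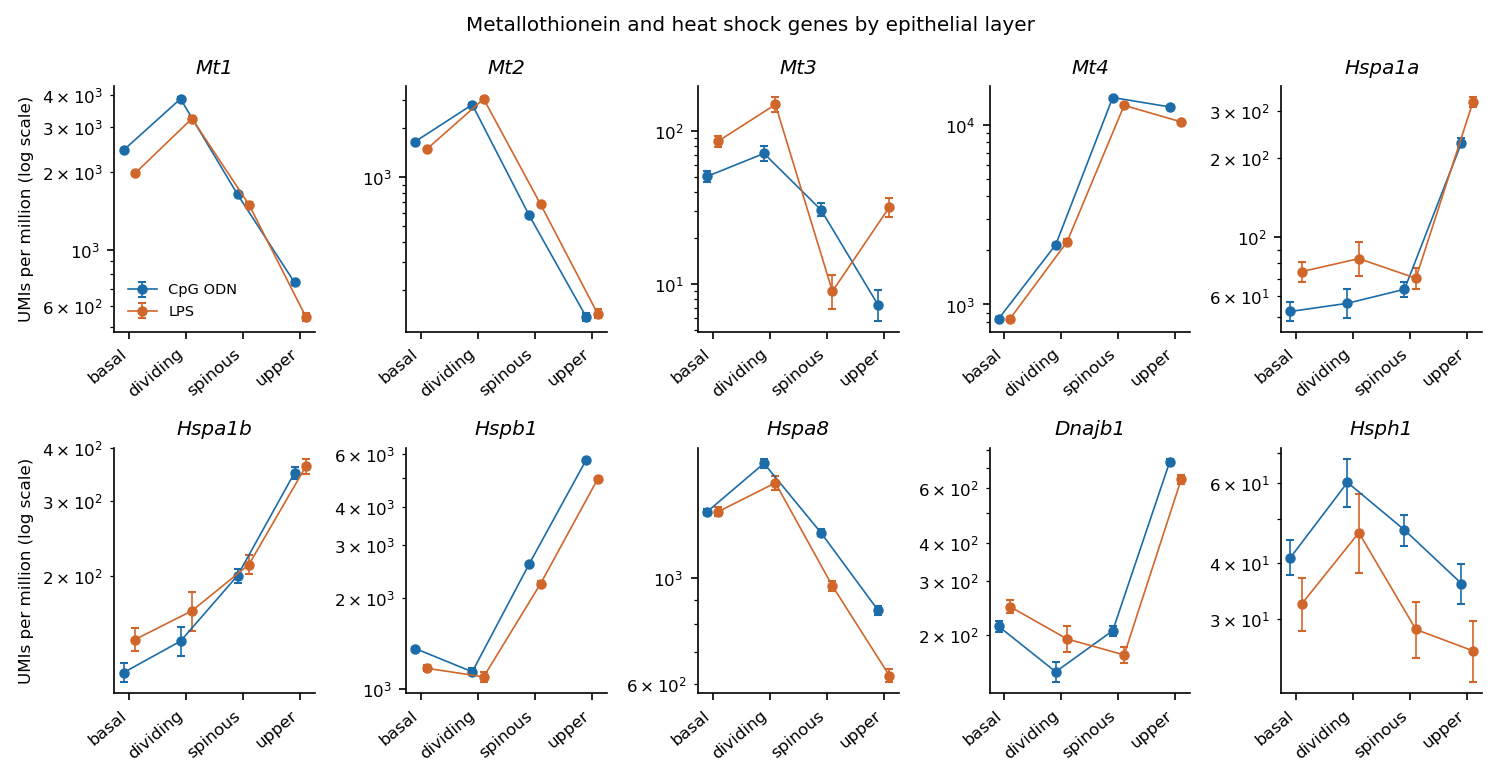
CPM of each gene (log axis, a scale of its own in each panel) in basal-like, dividing-like, spinous-like and upper-like cells of the CpG ODN and LPS libraries, with exact Poisson 95% intervals. Mt4, Hspb1, Hspa1b, Hspa1a and Dnajb1 are highest or near highest in the outer layers, while Mt1, Mt2, Hspa8 and Hsph1 peak in dividing-like cells.

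Mt3 was carried by a small number of cells. Over the epithelial-like cells, 13.7% with CpG ODN and 20.3% with LPS had a Mt3 UMI, 4.00% and 5.05% after thinning, and the 1% of cells with the most held 52.5% and 37.8% of its UMIs. Among the epithelial-like clusters it was highest in 3. These were the unplaced cluster led by Krt4 and Krt13, at 343.1 and 169.4 CPM, the basal-like cluster led by H19 and Adh7, at 207.2 and 196.4 CPM, and a dividing-like cluster led by Cenpf and Cdc20, at 90.9 and 196.6 CPM. The H19 cluster made up 89 of the 1220 basal-like cells with CpG ODN and 78 of the 347 with LPS, and without it the upper-like/basal-like ratio of Mt3 went from 0.145 to 0.205 and from 0.370 to 0.723. The basal-like levels of Mt3, 50.7 and 86.2 CPM, therefore stand on a different mix of clusters in each library. Within the H19 cluster itself the CpG ODN/LPS ratio was 1.06 (0.887-1.25), an interval that held 1.

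Of the heat shock genes, Hspb1, Hspa1b, Hspa1a and Dnajb1 rose towards the upper layers, each in its own step, while Hsph1 and Hspa8 did not. Hspb1 stood at 1364, 1143, 2596 and 5729 CPM in basal-like, dividing-like, spinous-like and upper-like cells with CpG ODN and at 1174, 1100, 2236 and 4947 with LPS. It was 4.20-fold (4.13-4.27) and 4.22-fold (4.11-4.32) higher in upper-like than in basal-like cells. Its highest level of all clusters was in the Lor-led cells, at 7316 and 6271 CPM, the same cells in which Mt1 and Mt2 were the lower of the 2 upper-like clusters. Hspa1b climbed in smaller steps, from 117.9 to 139.9, 199.9 and 349.7 CPM with CpG ODN and from 141.1 to 165, 212.3 and 362.6 with LPS. Its upper-like/basal-like ratio was 2.97 (2.79-3.15) and 2.57 (2.38-2.77).

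Among the 4 layers, Hspa1a stayed low up to the spinous-like cells and was higher in the upper-like cells. Cells not placed in a layer were not all low. In the unplaced cluster led by Ccl20 and Socs3, with 701 and 503 UMIs of Hspa1a, the sum of both copies stood at 432.3 and 590.8 CPM. In spinous-like cells the sum stood at 263.6 and 282.5 CPM. Hspa1a itself stood at 52.6, 56.5, 63.8 and 227.3 CPM in the 4 layers with CpG ODN, and at 74.4, 83.2, 70.2 and 323.3 with LPS. Its upper-like/basal-like ratio was 4.32 (3.96-4.73) and 4.35 (3.94-4.80), and the difference between libraries in the same direction, lower with CpG ODN, was seen in 3 of the 4 layers with intervals that left out 1. The count of Hspa1a over that of Hspa1b fell from 0.446 in basal-like to 0.319 in spinous-like cells and then rose to 0.650 in upper-like cells with CpG ODN. In the LPS library it went from 0.527 to 0.331 and 0.892. In the Lor-led cells of the LPS library Hspa1a even passed Hspa1b, at 443.9 and 293 CPM. How reads shared by the 2 copies were treated bears on this ratio and was not tested.

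Dnajb1 rose in the upper-like cells as well, and over the epithelial-like clusters it moved with the immediate early genes. It stood at 213.8, 152.3, 207.1 and 732.6 CPM in the 4 layers with CpG ODN and at 247.7, 194.6, 172.8 and 641.4 with LPS, an upper-like/basal-like ratio of 3.43 (3.28-3.58) and 2.59 (2.45-2.74). Immediate early genes such as Fos and Jun encode transcription factors that are induced within minutes by many stimuli, the dissociation of a tissue among them. The summed level of 15 of them was 6565, 5032, 4067 and 15197 CPM in the same layers with CpG ODN and 7517, 5876, 2960 and 13244 with LPS. Over the epithelial-like clusters with at least 30 cells, Dnajb1 and this sum, both as log2 values, had a Pearson r of 0.926 over 13 clusters with CpG ODN and 0.930 over 12 with LPS. Clusters of a library share its handling and its depth, so r is a description. In the other classes a high sum did not always come with high Dnajb1. In fibroblast-like cells the sum stood at 22559 and 18489 CPM, and Dnajb1 at 162.9 and 164.3. In gland-like cells the sum stood at 15932 and 15597 CPM, and Dnajb1 at 529.7 and 368.6. Over the epithelial-like clusters 3 other heat shock genes followed the sum less closely, with an r of 0.722 and 0.669 for Hspa1a, 0.570 and 0.447 for Hspa1b and 0.559 and 0.369 for Hspb1. For Hsph1 the r was -0.541 and -0.126, and for Hspa8 -0.300 and -0.0743. Dnajb1 was highest in the clusters led by Ccl20 and Socs3 (838.5 and 824.1 CPM) and by Krt10 (787.1 and 730 CPM), and stood at 602.5 and 508.8 CPM in the cluster led by Icam1 and Socs3. What part the release of the cells at 37 °C had in these levels was not tested.

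**Figure D3:**
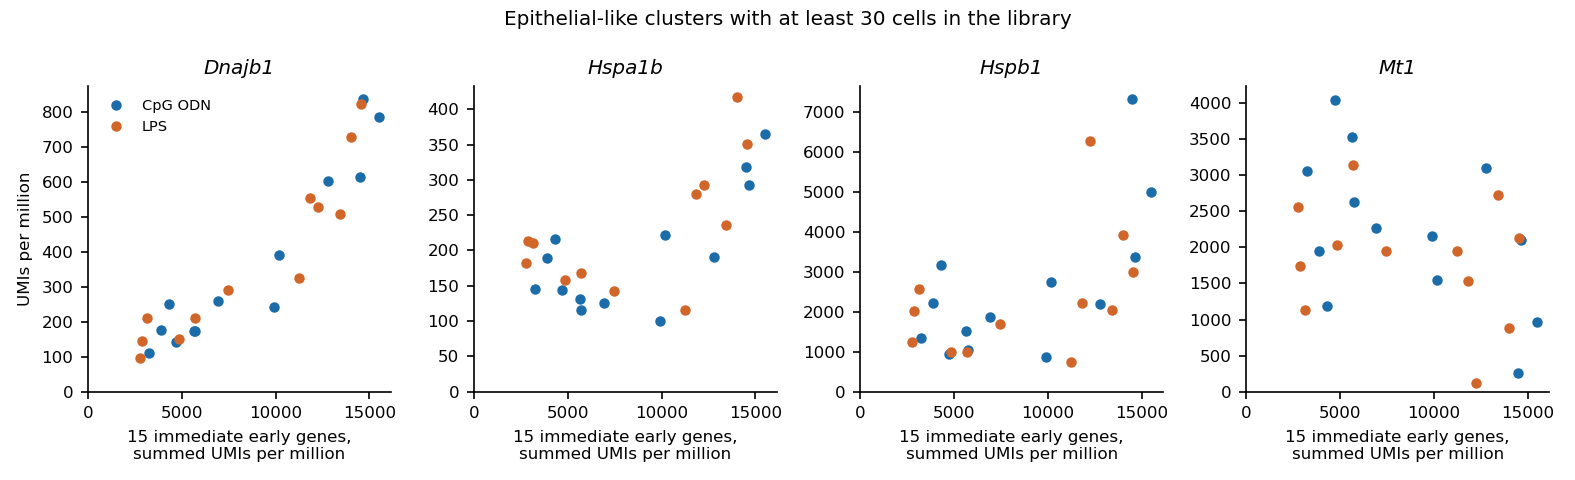
CPM of Dnajb1, Hspa1b, Hspb1 and Mt1 against the summed CPM of 15 immediate early genes, a point for each epithelial-like cluster with at least 30 cells in a library (13 with CpG ODN, 12 with LPS). Dnajb1 rises with the sum (r of 0.926 and 0.930 on log2 values), while Mt1 does not (r of -0.477 and -0.262).

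Hspa8 was lower in the upper-like cells, and Hsph1 differed little between basal-like and upper-like cells. Hspa8 stood at 1376, 1739, 1244 and 856.1 CPM in basal-like, dividing-like, spinous-like and upper-like cells with CpG ODN and at 1378, 1583, 962.4 and 623.9 with LPS, with an upper-like/basal-like ratio of 0.622 (0.606-0.638) and 0.453 (0.436-0.470). Hsph1 was highest in dividing-like cells, at 60.1 and 46.5 CPM, and its upper-like/basal-like ratio was 0.876 (0.764-1.01), an interval that held 1, and 0.787 (0.639-0.968), which turned to 1.05 as a mean over cells. For Hsph1 the ratio between the ligands, 1.36, was further from 1 than these. Hspa8 and Hsph1 were thus both highest in the dividing-like layer, as were Mt1 and Mt2. In the basal-like and dividing-like layers the CpG ODN/LPS ratio of Hspa8 was 0.998 and 1.10, against 1.29 and 1.37 in the spinous-like and upper-like layers.

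Counted over the 10 genes, 5 were 2-fold or more higher in upper-like than in basal-like cells of both libraries: Mt4, Hspa1a, Hspa1b, Hspb1 and Dnajb1. Of all genes compared, 11.4% were as much higher with CpG ODN and 12.6% with LPS. The genes 2-fold or more lower were Mt1, Mt2 and Mt3 in both libraries and also Hspa8 with LPS, 3 and 4 of the 10, where 36.1% and 35.3% of all genes were. The number that were lower is near the share of all genes, and it went to 2 with CpG ODN and to 2 with LPS when cells with fewer than 1200 genes were left out. The 5 that were higher remained 5 under all 9 alternatives, some of them close to the limit. At resolution 2.0 the ratio of Dnajb1 was 2.30 and 2.015, that of Hspa1b 2.39 and 2.17 and that of Hspa1a 2.82 and 3.01. The upper-like cells also held more keratin RNA (15.2% of UMIs in both libraries, against 3.34% and 3.12% in basal-like cells), less mitochondrial RNA (2.16% and 2.39% against 5.52% and 6.21%) and more UMIs per cell (medians of 35230 and 68469 against 9391 and 18337). Without keratin, mitochondrial and hemoglobin genes in the total, the ratios of the 5 genes were slightly higher, 16.6 and 13.7 for Mt4 and 4.63 and 4.64 for Hspb1.

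**Figure D4:**
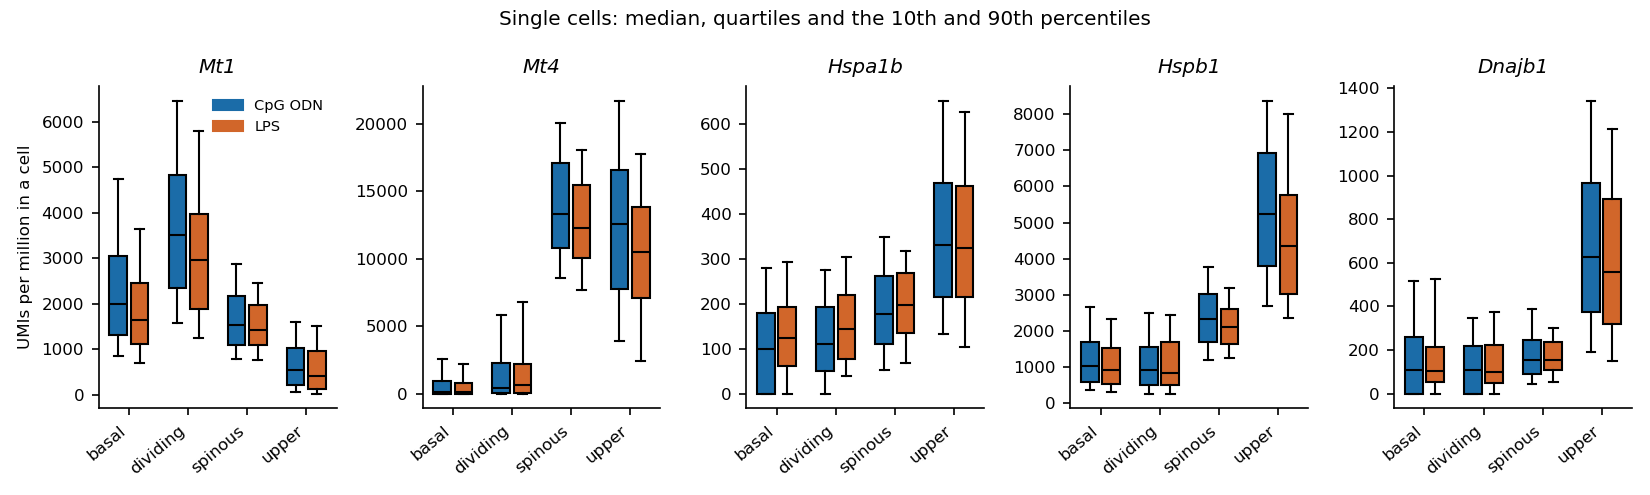
CPM of Mt1, Mt4, Hspa1b, Hspb1 and Dnajb1 in single cells of the 4 layers of each library: the line is the median, the box the quartiles and the whiskers the 10th and 90th percentiles. The Mt4 medians go from 157.6 and 127.5 in basal-like to 13299 and 12243 in spinous-like cells, and the Mt1 medians from 3506 and 2974 in dividing-like to 546.8 and 420.9 in upper-like cells.

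Within single cells, Mt1 and Mt2 went together, and the pairs of heat shock genes given here, which had fewer UMIs, had a lower rho. Over the epithelial-like cells the Spearman rho of Mt1 with Mt2 was 0.785 in 3762 cells with CpG ODN and 0.829 in 987 cells with LPS, and it stayed between 0.656 and 0.815 within each layer of either library. Mt1 with Mt4 gave -0.0928 and -0.0253 over all epithelial-like cells but 0.572 and 0.655 within the upper-like cells. Both genes were higher in the Krt10-led than in the Lor-led of the upper-like clusters. The rho of the upper-like cells therefore spans this difference, and rho within either cluster was not tested. Hspa1a with Hspa1b gave 0.276 and 0.384 over all epithelial-like cells. Within the layers this pair gave 0.0809, 0.0905, 0.0684 and 0.406 in basal-like, dividing-like, spinous-like and upper-like cells with CpG ODN and 0.168, 0.467, 0.173 and 0.520 with LPS. Hspa1b with Dnajb1 gave 0.271 and 0.30 over all epithelial-like cells. Within the layers, in the same order, it gave 0.0681, 0.115, 0.0252 and 0.253 with CpG ODN and 0.114, 0.113, 0.0120 and 0.455 with LPS. Hspb1 and Mt4, which both rose outward, gave 0.427 and 0.456 over all epithelial-like cells and -0.343 and -0.422 within the upper-like cells, where Hspb1 was higher in the Lor-led and Mt4 in the Krt10-led cluster. Few UMIs per cell weaken rho, so the lower rho of the heat shock pairs does not by itself show a looser link. Over the epithelial-like cells Hspa1a stood at 97.7 and 145 CPM, Hspa1b at 203.6 and 238.2 and Dnajb1 at 377.8 and 382.9. Mt2 stood at 1180 and 1158 CPM. In upper-like cells Mt2 was below Hspa1a and Hspa1b, at 136.7 and 143.1 CPM, and its rho with Mt1 was 0.656 and 0.815. Mt1 and Mt2 were both lower in the Lor-led than in the Krt10-led cluster, so this rho spans that difference too. What part the number of UMIs had in the rho of any pair was not tested. The cells of a library share its free RNA and differ in depth, and rho is given as a description.

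The other pathway lists were read against all genes, of which 11.4% and 12.6% were 2-fold higher and 36.1% and 35.3% lower in upper-like cells (CpG ODN and LPS). Of 17 genes measured there from a list of further HSF1-regulated chaperones, cochaperones and the factors Hsf1 and Hsf2, 0 were 2-fold higher and 7 lower in upper-like cells with CpG ODN, and 1 higher (Cryab, 20.7-fold from 8 and 155 UMIs) and 8 lower with LPS. Hsf1 was among the lower genes in both libraries, at 0.198 and 0.211. Hsf2, measured with CpG ODN only, stood at 0.0600 (0.019-0.145), from 96 UMIs in basal-like and 5 in upper-like cells. Cryab was measured with LPS only. The median log2 ratio of the list was -0.83 and -0.89, where that of all genes was -0.61 and -0.59 and that of the 10 genes 0.69 and 0.51. Hsp90aa1, the inducible cytosolic Hsp90, went from 556.6 to 109.3 CPM with CpG ODN and from 554.9 to 109.9 with LPS between basal-like and upper-like cells, and Hsp90ab1, its constitutive partner, from 2523 to 1348 and from 2579 to 1277. The immediate early genes were higher in the upper-like cells as a list. Of 15, 9 and 4 were 2-fold higher and 0 lower, and their median log2 ratio was 1.14 and 0.82, with Fos at a ratio of 1.73 and 1.40 and Jun at 1.98 and 1.497.

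The zinc transport and zinc-sensing genes showed 0 higher and 4 lower of 12 measured with CpG ODN and 1 higher and 3 lower of 10 with LPS, near the share of all genes that were lower. The importer gene Slc39a1 had a ratio of 0.339 and 0.337 and Slc39a6 of 0.937 and 1.10. Among 14 chaperones of the endoplasmic reticulum, 1 was higher and 0 lower with CpG ODN and 1 higher and 3 lower with LPS, and Hspa5, the Hsp70 of that compartment, had a ratio of 1.16 and 1.73 and Calr of 1.17 and 1.25. Of 12 targets of the oxidative stress factor NRF2, 4 were higher and 4 lower with CpG ODN and 3 higher and 5 lower with LPS, the lower counts near the share of all genes and the higher ones above it, with Txn1 at 0.682 and 0.556 and the ferritin gene Fth1 at 1.14 and 1.41. Of 7 genes that respond to glucocorticoids, 2 were higher and 3 lower with CpG ODN and 1 higher and 3 lower with LPS. Cdkn1a, an inhibitor of the cell cycle, had the ratios 13.2 and 8.46, and Sgk1, a kinase of ion transport, 2.20 and 1.998. Between the ligands, over the epithelial-like cells, 1 gene of the 6 lists was past 2-fold. This was Cryab, a small heat shock protein gene, at 2.02 CPM (130 UMIs) with CpG ODN and 5.01 CPM (171 UMIs) with LPS, a ratio of 0.403 (0.319-0.510). The chaperones of the endoplasmic reticulum lay to the CpG ODN side as a list, with 13 of 14 ratios above 1 and a median log2 ratio of 0.27, against -0.01 for all genes. The 2 genes with the most UMIs of each list had ratios of 1.07 for Hsp90aa1, 1.05 for Hsp90ab1, 1.01 for Hspa5, 1.17 for Calr, 0.911 for Slc39a1, 1.17 for Slc39a6, 1.08 for Txn1, 0.984 for Fth1, 0.996 for Fos, 1.03 for Jun, 1.25 for Sgk1 and 0.953 for Cdkn1a.

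Across the cell classes Mt4 was highest in epithelial-like cells. Mt1 in the CpG ODN library was as high in fibroblast-like, mural-like and myeloid-like cells (2347, 2559 and 2512 CPM) as in epithelial-like cells (2191). In the LPS library mural-like cells were as high (1772 against 1732 CPM), while fibroblast-like (1177) and myeloid-like cells (992.5) were lower. B-like cells, which are not known to make Mt4, give the background that free RNA in the droplets can leave, and they had few UMIs of Mt1, Mt2, Hspb1, Hspa1a and Hspa1b. They held 26.5 and 21.1 CPM of Mt1, 20.7 and 12.7 of Hspb1 and 0 and 1 UMI of Hspa1b, and 0 of 415 and 0 of 69 cells had a Mt3 UMI. A count of 0 allows up to 2.15 and 12.7 CPM here. Of Mt4 they held 68.7 and 67.6 CPM, with a UMI in 17.8% and 17.4% of cells at median depths of 2455 and 3157 UMIs, against 86.3% and 88.7% of the epithelial-like cells at 13263 and 27075. Thinned to 1500 UMIs these shares were 9.56% and 8.43% against 73.0% and 70.5%. The Mt4 level of epithelial-like cells was 117-fold (89.7-157) and 132-fold (81.3-231) that of the B-like cluster led by Ighd and Ighm. Mt4 in T-like (51.4 and 35.8 CPM), mural-like (45.5 and 41.5) and endothelial-like cells (44.4 and 22.1) did not exceed the B-like level. In fibroblast-like cells it stood at 416.1 and 120.1 CPM, of which 1 cell held 29.4% and 66.7%.

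Hspa8 was the member present everywhere. It stood between 536.3 and 1967 CPM in all 9 classes of both libraries, with 877.7 and 536.3 CPM in B-like cells (708.2 and 536.3 in the B-like cluster led by Ighd and Ighm, since the other, of 131 cells, held CpG ODN cells only) and 977.5 and 944.2 in T-like cells. Hspa1a and Hspa1b divided the classes in another way: B-like and T-like cells held at most 15.8 CPM of either, in counts of 0 to 4 UMIs, while fibroblast-like cells held 125.1 and 118 CPM of Hspa1a and 195 and 204.3 of Hspa1b. The fibroblast-like level of Hspa1b was near that of the epithelial-like cells, and its CpG ODN/LPS ratio of 0.954 (0.745-1.23) held 1. Hspb1, a gene of epithelium and muscle, stood at 1655 and 1392 CPM in mural-like cells, 1012 and 605.6 in gland-like cells and 759.1 and 869 in endothelial-like cells.

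The glial-like cells, 23 and 11 in number, had the highest Mt1, Mt2 and Mt3 of all classes. Mt1 stood at 10997 CPM (10077-11978) with CpG ODN and 9351 (8404-10376) with LPS, and Mt3 at 1254 (957-1615) and 1739 (1345-2212). Mt2 stood at 2551 (2118-3045) and 2740 CPM (2238-3319). A Mt3 UMI was found in 13 of the 23 and 10 of the 11 cells, against 0 of 235 and 0 of 53 fibroblast-like cells and 0 of 32 and 0 of 13 myeloid-like cells. The Mt3 ratio between the ligands, 0.722 (0.50-1.04), held 1. These values rest on 526 and 355 UMIs of Mt1, 122 and 104 of Mt2 and 60 and 66 of Mt3, and no single cell held more than 26.7% of them.

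In the stroma Mt1 was higher with CpG ODN in fibroblast-like and mural-like cells. It stood at 2347 CPM (2255-2443) and 1177 (1082-1279) in 235 and 53 fibroblast-like cells, a ratio of 1.99 (1.82-2.19), and at 2559 and 1772 CPM in 65 and 16 mural-like cells, a ratio of 1.45 (1.27-1.65), with 29.1% of the LPS UMIs in 1 cell. Mt2 in the fibroblast-like cells had a ratio of 1.44 (1.26-1.65). In endothelial-like, myeloid-like and T-like cells the Mt1 values came largely from single cells in 1 of the libraries. In endothelial-like cells Mt1 stood at 164.3 and 857.9 CPM, and 1 cell held 81.3% of the UMIs of the LPS library. In myeloid-like cells Mt1 stood at 2512 and 992.5 CPM in 32 and 13 cells, with 79.1% of the LPS UMIs in 1 cell, and Mt4 at 476.2 and 11.5 CPM, with 79.1% of the CpG ODN UMIs in 1 cell. Keratin genes held 0.532% of the UMIs of these myeloid-like cells with CpG ODN and 0.0392% with LPS, and their part in the Mt4 level was not tested. In T-like cells 1 cell held 66.7% of the 45 Mt1 UMIs with CpG ODN, against 3 UMIs with LPS.

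**Figure D5:**
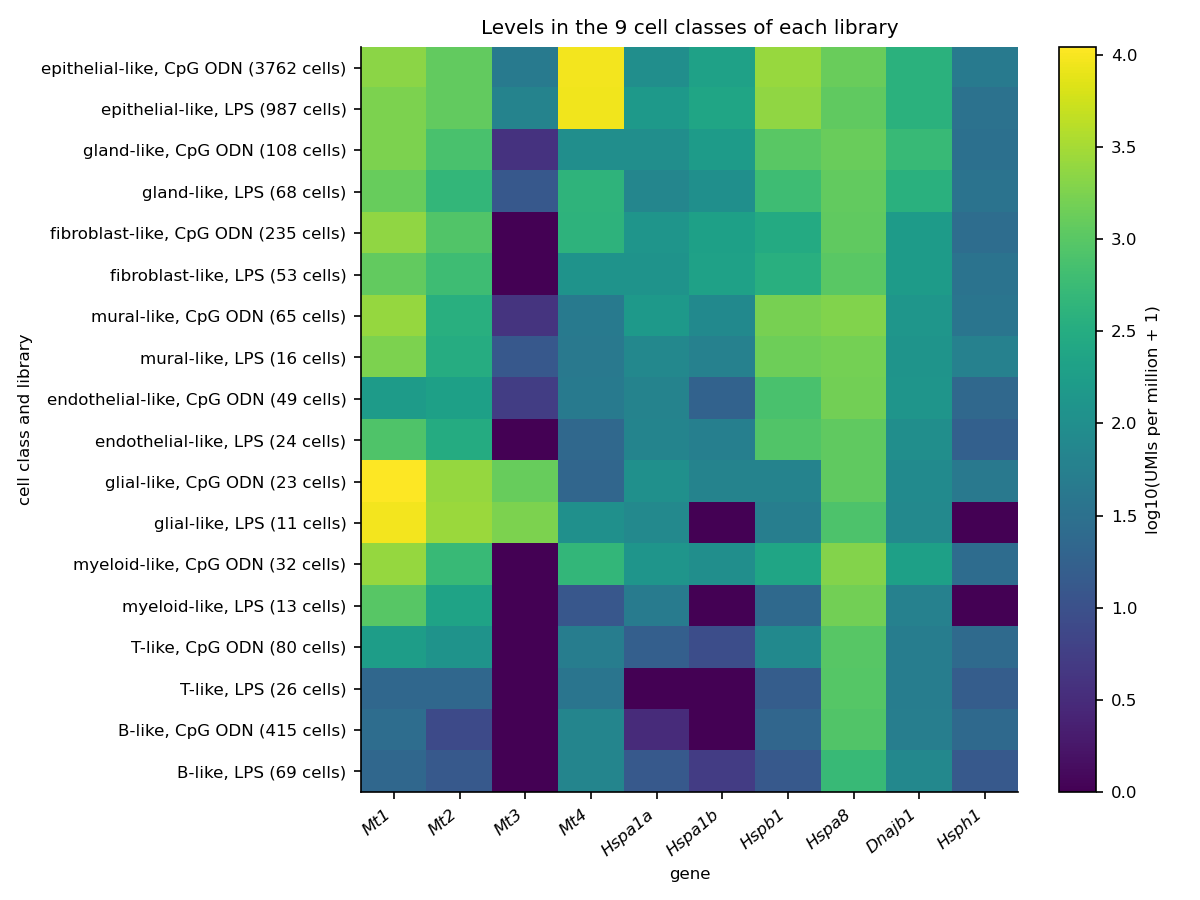
log10(CPM + 1) of the 10 genes (columns) in 9 cell classes of each library (rows, with the number of cells). Mt4 is highest in epithelial-like cells (9170 and 8921 CPM), and Mt1, Mt2 and Mt3 in glial-like cells. Hspa8 is present in every row, while B-like and T-like cells are low in Mt1, Mt2, Hspa1a and Hspa1b.

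Among epithelial-like clusters, Mt4 was not shared by all. The cells led by BC037156 and Odam, the latter known from the epithelium that attaches to the tooth, numbered 17 and 16 and held 16.9 and 17.5 CPM of Mt4 (4 and 10 UMIs), below the 68.7 and 67.6 CPM of B-like cells. The cluster led by Krt4 and Krt13, keratins of the lining mucosa, had the highest Mt4 of all clusters, at 17353 and 16840 CPM. Mt1 was at 1985 and 637.6 CPM and Hspb1 at 644.8 and 586.8 CPM in the Odam-led cells. In the gland-like cells Mt4 stood at 97.0 and 422.9 CPM, of which 1 cell held 45.1% and 55.3%.

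The genes most like each pattern were sought over 37 points, the clusters of each library with at least 30 cells, among 7335 genes with at least 1000 UMIs, as the Pearson r of log2(CPM + 10). For Mt4 these were Fabp5, a fatty acid binding protein of keratinocytes (r of 0.982), Capns2 (0.956), Gm94 (0.951), Them5 (0.9499) and Acad9 (0.9497). For Hspa1b they were Hspb8, a small heat shock protein gene (0.940), Pard3 (0.924), Abhd5 (0.918), Slc6a8 (0.914) and Tmem65 (0.911). For Hspb1 they were Cltb (0.966), Avpi1 (0.9497), Crip2 (0.943), Pacsin3 (0.937) and Plcd1 (0.936), and for Mt1 Plxna1 (0.929), Gnai1 (0.904), Eef2k (0.902), Aamp (0.896) and Rangrf (0.894). Among the 10 genes the closest pairs over the same points were Mt1 and Mt2 (0.939), Hspa1b and Hspb1 (0.889) and Hspa1a and Hspa1b (0.869). The points share libraries and depths, and r is a description.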

How the data were processed

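The authors deposited, for each of the 2 libraries, a filtered matrix of UMI counts per gene and barcode raw and not normalized, which Cell Ranger (4.0.0, per the file headers) had made. The genome build is not given in the sources used here. Of 32285 gene identifiers, 32235 were in GENCODE M21 (GRCm38), the 10 genes among them, and positions were taken from it.

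Barcodes with fewer than 800 detected genes, 1331 and 739, were left out. Counts were log-normalized per cell, and 2000 variable genes, 30 principal components and 15 neighbours gave Leiden clusters at resolution 1.0. The 10 genes and 84 genes of the 6 pathway lists took no part in the clustering. A marker counted for a cluster when it was seen in 20% or more of the cells and reached 2 times the average over coarse clusters (resolution 0.05), or for layers 1.5 times that of the other epithelial clusters. At least 3 markers gave a name with "-like", unless more of the leading genes were markers of another class or layer. A cluster of low depth also needed a marker among its leading genes. The spinous-like name required Krt76 among the markers and the upper-like name Krt10. Layers were tried in the order dividing, upper, spinous and basal. This scoring rule was set after the data were seen, and 2 clusters stayed unnamed. The names are rebuilt and need not match the study's.

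Summed UMIs were given as CPM with exact Poisson intervals, shares with exact Clopper-Pearson intervals and ratios with exact conditional binomial intervals, all at 95%. The limit for genes without a UMI was 3 UMIs. Shares were also given for cells thinned to 1500 UMIs. "Called" means 2-fold or more among genes with at least 100 UMIs. With 1 library per ligand no p-value was computed. Scrublet (scanpy 1.11.5) marked 17 cells (0.348%) and 3 cells (0.235%), too few to have worked, so doublets were kept and the 5% of cells with the highest score were left out as an alternative. Alternatives were other gene limits, resolutions, totals and choices of cells. The intervals and thinning were tested on simulated data.

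The members and the lists were chosen with earlier results of these data known. All 10 genes were named, from each list the 2 genes with the most UMIs in epithelial-like cells and any gene past 2-fold between the ligands, and for Mt1, Mt4, Hspa1b and Hspb1 the 5 genes most alike. Other genes are named only as leading a cluster, with the exception of Hsf1 and Hsf2. Promoters are RefSeq sequences (GRCm38.p6). Python 3.11.15, numpy 2.4.6, scipy 1.17.1, pandas 2.3.3, scikit-learn 1.9.0, leidenalg 0.10.2, igraph 0.11.9 and matplotlib 3.10.9 were used.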

Additional observations from a re-analysis of the deposited data

Results flagged for a closer look

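For 4 of the genes the CpG ODN/LPS ratio had opposite directions in different epithelial layers, with counting intervals that left out 1, and the difference between the layers was not tested. Mt2 had ratios of 1.12 in basal-like, 0.921 in dividing-like and 0.854 in spinous-like cells. Mt3 had ratios of 0.588 in basal-like, 0.479 in dividing-like, 3.40 in spinous-like and 0.230 in upper-like cells, which rest on 63 to 604 UMIs per library and layer held by few cells. Mt4 had ratios of 0.961 in dividing-like, 1.11 in spinous-like and 1.21 in upper-like cells. Dnajb1 had ratios of 0.863 in basal-like, 0.782 in dividing-like, 1.20 in spinous-like and 1.14 in upper-like cells. The clusters within a layer did not share a direction: in the basal-like cells the ratio was 1.16 (1.03-1.31) in the cluster led by Pappa, 0.890 in that led by Col17a1 and Igfbp3, where 1 cell held 13.5% of the LPS UMIs, and 0.741 in that led by H19, and in the dividing-like clusters it was 0.667, with 20.1% of the LPS UMIs in 1 cell, and 1.21 (0.935-1.58). The summed immediate early genes stood at 6565, 5032, 4067 and 15197 CPM in these layers with CpG ODN and at 7517, 5876, 2960 and 13244 with LPS.

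Barcodes with fewer than 800 detected genes were not used for the reported values, and only an alternative limit of 200 detected genes took in some of them. They also held UMIs of the 10 genes, at 2386 CPM in the CpG ODN library (3853 UMIs) and 697.0 CPM in the LPS library (1047 UMIs). Hemoglobin genes held 23.5% and 74.8% of the UMIs of these barcodes.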

How the results depend on the processing

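No paired analysis was possible because a single library stands for either treatment. The number of the 10 genes 2-fold or more lower in upper-like than in basal-like cells with LPS, 4 as reported, was 2 with at least 1200 detected genes, 2 at resolution 0.5 and 2 at resolution 2.0. The numbers past 2-fold between the ligands were 0 under every alternative that was run, and those 2-fold or more higher in upper-like cells were 5. The Hsph1 ratio of upper-like over basal-like cells with LPS turned from 0.787 to 1.05 as a mean over cells. Among the ratios under alternatives, 189 stayed within the counting interval of the reported value, 110 moved outside it and 1 reversed. Upper-like over basal-like, Mt1 ranged from 0.302 to 0.608 with CpG ODN and from 0.274 to 0.536 with LPS, Mt2 from 0.0792 to 0.244 and from 0.0964 to 0.271, Mt3 from 0.133 to 0.484 and from 0.304 to 0.762, and Hspb1 from 2.61 to 4.63 and from 2.45 to 4.64, the last lowest at resolution 2.0. The cause was not tested. Shares of cells with a UMI stayed in 257 cases and moved in 103, all of them by thinning to 1500 UMIs. The alternatives that leave out the cells with the highest doublet score, weight clusters equally, or leave out clusters were added after the data were seen. Without the clusters led by Socs3 and B cell genes, the Dnajb1 ratio between the ligands was 0.889 in place of 0.987. The spread between mice cannot be seen with 1 library per ligand.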

Other observations

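The unnamed cluster led by Hist1h2ap, Pclaf and Ighg2b, with 108 cells in the CpG ODN library and 4 in the LPS library, had the highest Hspa8 of the clusters of the CpG ODN library, at 2093 CPM, and the highest Hsph1, at 90.6 CPM. Its Hspa1a stood at 7.09 CPM and its Hspa1b at 12.6 CPM in the same library. The unnamed cells led by the contractile genes Cnn1 and Myh11, 11 and 6 in number, held 3689 and 4718 CPM of Mt1, 2521 and 2151 CPM of Hspb1 and 1 UMI of Mt4 in each library. These clusters were described after their values were seen.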
